A study of Homo sapiens with 8 samples.

Results

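Genes of mitosis and the spindle were examined in 8 human breast cell arrays: 38 genes were listed by name, and every probe that the array annotation gives to them was read in all 8 arrays. Of the 38 genes, 37 had a named probe, 48 probes in all, out of 21834 named probes for 16922 genes and 24526 probes in total. CDK1, once named CDC2, was found, while ECT2, a regulator of cytokinesis, had no named probe. Its expression is therefore not analysed here, and only its promoter windows are counted below. Total RNA was labelled with biotin and hybridised to Illumina bead arrays, 1 array for each of 8 samples. SUM1315, MDA-MB231 and SUM159, which the labels call basal-like breast cancer cells, carried no transgene. SUM159 was also stably transfected with IRX5, a homeobox transcription factor, or with LacZ, the bacterial gene used as the control. HMLE, a human mammary epithelial line that is known as immortalised with telomerase and the SV40 early region, was stably transfected with LacZ, with Gcnt2 (a glycosyltransferase) or with Foxq1 (a forkhead transcription factor). Every HMLE array and the SUM159/IRX5 and SUM159/LacZ arrays therefore carried a stable transfection, and an untransfected HMLE array was not used here. The labels do not say whether a transfected line is a pool or 1 clone, nor the species and extent of a construct.

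A dividing cell enters mitosis when CDK1 bound to its cyclins is freed of inhibitory phosphates by CDC25 phosphatases, and leaves it when the anaphase-promoting complex, switched on by CDC20, marks cyclins and securin for destruction. In between, the kinases PLK1, AURKA and AURKB and the kinesin motors build the spindle, the checkpoint proteins BUB1, BUB1B, MAD2L1 and TTK hold back anaphase, and ANLN and PRC1 help to divide the cell body. Most of these genes are transcribed late in the cycle, with FOXM1 and the MuvB complexes acting at cell cycle homology regions (CHR) and NF-Y acting at CCAAT boxes, and the family is read in breast tumours as a measure of proliferation. SV40 large T antigen, which HMLE cells carry, is known to bind the RB family and p53, the brakes on this programme.

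The promoter windows of 5 members show those elements, and they are given because these genes mark the patterns described further on: DLGAP5 had the widest gap between SUM159/IRX5 and its untransfected parent, CCNB2 the narrowest range over the 8 arrays, CDC25C the widest, KIF20A lies near CDC25C on chromosome 5, and KIF4A stood out in HMLE/Foxq1. Sequences are RefSeq windows on GRCh38.p14, from 250 bases before to 50 bases after a gene start, written 5′ to 3′ on the strand of the gene. Capitals mark a CHR (TTTGAA or TTCGAA, or the opposite strand TTCAAA) or a CCAAT box (CCAAT, or ATTGG on the opposite strand), and neighbouring matches can merge.
CCNB2 (chr15:59104896-59105195, plus strand): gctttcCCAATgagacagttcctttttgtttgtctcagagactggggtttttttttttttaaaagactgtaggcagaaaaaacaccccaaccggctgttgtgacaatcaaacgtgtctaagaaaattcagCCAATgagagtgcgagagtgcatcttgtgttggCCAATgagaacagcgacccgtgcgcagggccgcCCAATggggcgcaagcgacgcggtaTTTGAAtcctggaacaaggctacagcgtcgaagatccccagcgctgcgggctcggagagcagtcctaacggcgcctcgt
DLGAP5 (chr14:55191536-55191835, minus strand): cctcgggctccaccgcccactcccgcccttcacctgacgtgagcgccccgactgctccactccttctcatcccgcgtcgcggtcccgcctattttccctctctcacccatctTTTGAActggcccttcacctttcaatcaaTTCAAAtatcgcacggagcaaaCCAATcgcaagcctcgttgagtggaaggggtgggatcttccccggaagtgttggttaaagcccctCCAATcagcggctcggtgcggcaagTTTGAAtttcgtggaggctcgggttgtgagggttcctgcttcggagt
CDC25C (chr5:138331755-138332054, minus strand): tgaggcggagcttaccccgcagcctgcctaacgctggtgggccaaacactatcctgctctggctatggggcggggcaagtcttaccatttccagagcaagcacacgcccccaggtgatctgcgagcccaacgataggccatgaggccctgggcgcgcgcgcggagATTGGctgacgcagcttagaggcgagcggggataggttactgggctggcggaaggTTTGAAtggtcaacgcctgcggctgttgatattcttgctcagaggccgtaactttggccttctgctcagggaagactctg
KIF20A (chr5:138178862-138179161, plus strand): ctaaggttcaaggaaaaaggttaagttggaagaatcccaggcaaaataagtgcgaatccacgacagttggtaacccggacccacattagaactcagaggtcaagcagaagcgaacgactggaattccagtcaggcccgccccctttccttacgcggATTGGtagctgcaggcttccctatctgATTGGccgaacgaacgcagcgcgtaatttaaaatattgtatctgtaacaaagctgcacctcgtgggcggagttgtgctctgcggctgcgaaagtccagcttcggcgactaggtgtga
KIF4A (chrX:70289854-70290153, plus strand): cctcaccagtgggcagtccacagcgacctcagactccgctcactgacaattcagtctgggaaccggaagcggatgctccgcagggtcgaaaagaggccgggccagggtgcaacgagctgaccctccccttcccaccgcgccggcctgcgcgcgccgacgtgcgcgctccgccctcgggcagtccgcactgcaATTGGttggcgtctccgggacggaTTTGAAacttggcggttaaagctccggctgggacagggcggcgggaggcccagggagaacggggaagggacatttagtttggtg
The CHR begins 29 bases before the gene start in CCNB2, 30 bases before it in CDC25C and 34 bases before it in KIF4A. DLGAP5 has 3 and does not share that spacing: they begin 138 and 109 bases before the gene start and at base 4 from it. CDC25C has 4 windows, of which 1 is shown. Another overlaps it and holds the same CHR, there 44 bases after the gene start of that window. The remaining 2 hold neither a CHR nor a CCAAT box. KIF20A held CCAAT boxes and no CHR of these letters, which says nothing about what binds there. RefSeq gave 42 windows for 32 of the 38 listed genes, some of them overlapping windows of 1 gene. An element in such an overlap, as that CHR of CDC25C, counts in each window. A CHR was found in 27 of the 42 windows (64.3%) against 16.4% of all 35114 windows, and a CCAAT box in 33 (78.6%) against 34.6%. Both lay together in 24 windows (57.1%) against 6.38%. The E2F sites TTTGGCGC and TTTCGCGC, read on both strands, were found in 3 windows (7.14%) against 1.15%. These shares are descriptions of letters, with no test.

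The deposited values are probe intensities, and after normalisation the arrays had median intensities of 159.7 to 159.9. A detection limit of 146 was set from the spread of dim probes, and 10018 to 10378 genes per array lay above it. All 37 members lay above it in all 8 arrays by their brightest probe, against 47.4% of all genes. Differences are log2 differences of background-corrected intensities, "called" means at least 2-fold apart, and a gene stands for its brightest probe unless another is named. Each group was measured on a single array, so the differences carry no replicate error and the number of arrays limits the precision. Each share of members is therefore given beside the share over all genes compared, with no p-value. The label check was mixed. The GCNT2 probe for NM_145649 read 9104 in HMLE/Gcnt2 and 106 in HMLE/LacZ. FOXQ1 read 299 in the array labelled HMLE/Foxq1 against 1641 in HMLE/LacZ, and IRX5 read 151 in the array labelled SUM159/IRX5 against 165 in SUM159/LacZ. Neither FOXQ1 nor IRX5 was thus higher in the array labelled with it. A probe outside a construct checks nothing, and directions for both arrays rest on their labels. The epithelial markers CDH1, KRT5, KRT14, CLDN7, EPCAM and ITGB4 were above the limit in every HMLE array, and KRT5 and KRT14 in no cancer line. The others were not confined to HMLE. EPCAM lay above the limit in all 8 arrays, at 176 to 356, and ITGB4 in every array except SUM1315. CLDN7 also lay above it in MDA-MB231, at 194, and CDH1 in SUM1315, at 175. CDH1 read 8097 in HMLE/LacZ, 13304 in HMLE/Gcnt2 and 1191 in HMLE/Foxq1. Among markers of other cell types, PTPRC, CD3E, HBB, VWF and CDH5 lay under the limit in all 8 arrays, while CD68, CD14 and PECAM1 lay above it in all 8. KRT17 and TP63 had no named probe.

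The members were detected throughout, and the arrays ordered many of them alike. The range from the lowest to the highest array ran from 1.52-fold for CCNB2 to 10.8-fold for CDC25C, with a median of 2.92-fold, and it reached 2-fold in 33 of 37 members, where 54.6% of all genes above the limit in any array did so, and 4-fold in 9 members, where 17.5% of all genes did. SUM159/IRX5 held the lowest readings most often, as the heat map of all members shows: 26 of 37 members had their lowest reading there, against 11.7% of all genes. HMLE/Gcnt2 was lowest for 7 members, where 28.0% of all genes were ranked lowest. Of the 12348 genes above the limit in any array, 8018 lay above it in all 8. The others had arrays under the limit, and the order of those arrays is not a reading. Shares of all genes with a given lowest array are thus only a rough background for the members. MDA-MB231 was highest for 16 members (16.9% of all genes), SUM1315 for 11 (20.3%), untransfected SUM159 for 5 (8.2%) and HMLE/Foxq1 for 4 (15.2%). TTK, the checkpoint kinase, was the remaining member, and it was highest in HMLE/LacZ. Without the HMLE/Foxq1 array, left out after its probes were seen to disagree, MDA-MB231 was highest for 17 members (20% of all genes) and SUM1315 for 13 (22.9%), and SUM159/IRX5 was lowest for 26 (13.4%). The median correlation between pairs of members over the 8 arrays was 0.596, a description only, since the 8 arrays come from 4 lines and share 1 normalisation.

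**Figure D1:**
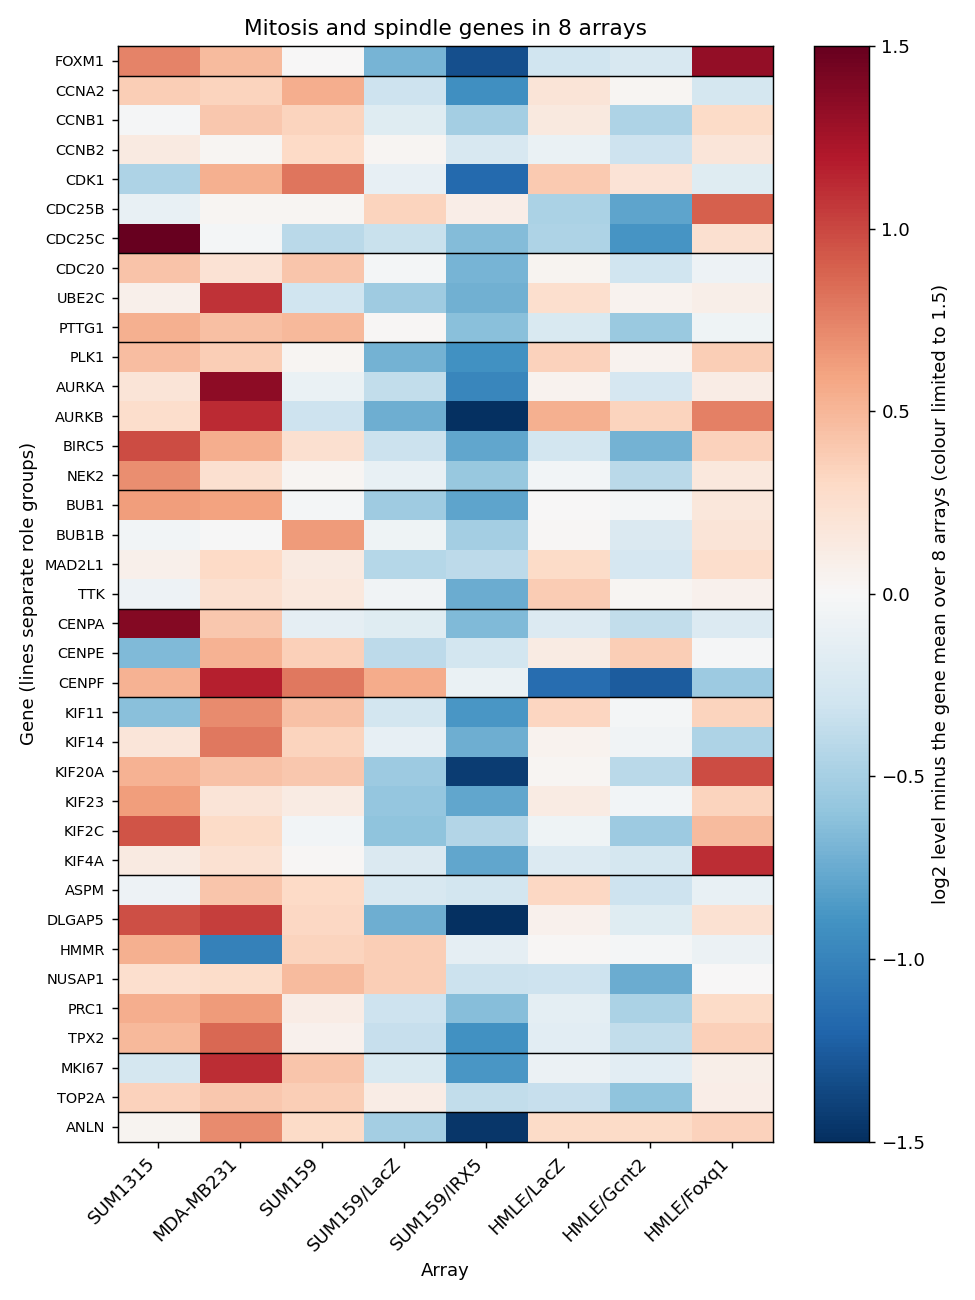
Heat map of the 37 measured members (rows, in role groups) in the 8 arrays (columns); colour gives the log2 level minus the mean of that gene over the 8 arrays, limited at 1.5 on either side. The column of SUM159/IRX5 is blue for most members, with the median member at -0.72, and CDC25C is the darkest red cell, in SUM1315.

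FOXM1, the transcription factor that drives many late cell cycle genes, had its highest and its lowest reading in transfected arrays. It read 2006 in SUM1315, 1678 in MDA-MB231, 1216 in untransfected SUM159, 759.7 in SUM159/LacZ, 506 in SUM159/IRX5, 993 in HMLE/LacZ, 1034 in HMLE/Gcnt2 and 2980.0 in HMLE/Foxq1. The highest array was HMLE/Foxq1 and the lowest SUM159/IRX5, 6.21-fold apart, and the 3 untransfected lines lay between them. Its other probe, for NM_202002, had the same highest and lowest arrays, at 1953 and 348.

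The SUM159 arrays set the array labelled IRX5 against LacZ, the vector control, and against the untransfected parent. Whether IRX5 itself made any difference was not tested. Its probe read 151 in SUM159/IRX5 and 165 in SUM159/LacZ. As a group, mitotic genes were highest in the untransfected cells, lower with LacZ and lowest in the array labelled IRX5. The untransfected array was the highest of the 3 for 34 of 37 members (36.0% of all genes) and the IRX5 array the lowest for 33 (36.1%). The caveat on genes under the limit in some arrays applies to the share for the lowest array. The 4 members not lowest there were CDC25B, MAD2L1, CENPE and KIF2C. Against the untransfected parent, 14 of 37 members were called lower in SUM159/IRX5 and none higher, against 3.44% and 3.03% of all genes. By any amount 36 of 37 were lower (48.5%), and the median member was -0.89 with a median over all genes of 0.01. Against SUM159/LacZ, 34 of 37 were lower by any amount (47.9% of all genes), but only CDK1 and AURKB were called lower and none higher (2.0% and 1.18%), with a median of -0.51. The LacZ array went the same way: 34 of 37 members were lower in SUM159/LacZ than in the parent (51.4% of all genes), with a median of -0.46. There only DLGAP5 was called lower and none higher (1.33% and 2.28%). The LacZ array is in both of these comparisons, so their values are not independent. At least 2-fold below both controls were CDK1 and AURKB, and no member was as far above both (0.827% and 0.735%). In RNA from whole cultures, fewer dividing cells and less of each transcript per cell cannot be told apart.

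In the cyclin and CDK engine, CDK1, the kinase that starts mitosis, read 2380.2 in SUM1315, 4711 in MDA-MB231, 5705 in untransfected SUM159, 2997 in SUM159/LacZ, 1476 in SUM159/IRX5, 4280.4 in HMLE/LacZ, 3785 in HMLE/Gcnt2 and 2901 in HMLE/Foxq1. The parent was the highest array and SUM159/IRX5 the lowest. The IRX5 value of CDK1 was 3.93-fold below the parent and 2.05-fold below LacZ, and its dimmer probe read 1427, 842 and 394 in the same order. CCNA2, cyclin A2, which partners CDK2 and then CDK1, read 4424 in SUM1315, 4311 in MDA-MB231, 4984 in untransfected SUM159, 2776 in SUM159/LacZ, 1831 in SUM159/IRX5, 3915 in HMLE/LacZ, 3493 in HMLE/Gcnt2 and 2865 in HMLE/Foxq1. Its IRX5 reading was again the lowest, 2.75-fold below the parent. The B-type cyclins, which carry CDK1 into mitosis, differed less: CCNB1, between 1055 and 1961 over the 8 arrays, was 1.79-fold below the parent in SUM159/IRX5. CCNB2 read 5234 in SUM1315, 4871 in MDA-MB231, 5845 in untransfected SUM159, 4866 in SUM159/LacZ, 4032 in SUM159/IRX5, 4443 in HMLE/LacZ, 3860.4 in HMLE/Gcnt2 and 5398 in HMLE/Foxq1. Its IRX5 reading was 1.45-fold below the parent. The CDC25 phosphatases, which activate CDK1, differed least in SUM159. CDC25B read 3965 in SUM1315, 4379.6 in MDA-MB231, 4349.6 in untransfected SUM159, 5380.5 in SUM159/LacZ, 4563 in SUM159/IRX5, 3075 in HMLE/LacZ, 2486 in HMLE/Gcnt2 and 7907 in HMLE/Foxq1. In SUM159 it was the one member higher in the IRX5 array than in the parent, by 1.05-fold. CDC25C read 572 in the parent, 602 in SUM159/LacZ and 487 in SUM159/IRX5, 1.19-fold below the parent.

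Among the exit machinery, CDC20, the activator of the anaphase-promoting complex, read 15675 in SUM1315, 13521 in MDA-MB231, 15516 in untransfected SUM159, 11388 in SUM159/LacZ, 7225 in SUM159/IRX5, 11985 in HMLE/LacZ, 9479.7 in HMLE/Gcnt2 and 11036 in HMLE/Foxq1. PTTG1, the securin that guards sister chromatids until anaphase, read 17388 in SUM1315, 16499.5 in MDA-MB231, 16858 in untransfected SUM159, 12235 in SUM159/LacZ, 7827 in SUM159/IRX5, 10269.6 in HMLE/LacZ, 8215 in HMLE/Gcnt2 and 11546 in HMLE/Foxq1. In SUM159/IRX5 both were a little over 2-fold below the parent, 2.15-fold and 2.16-fold, with LacZ in between. UBE2C, the ubiquitin-conjugating enzyme of the complex, read 10435 in SUM1315, 20974 in MDA-MB231, 8050.5 in untransfected SUM159, 6823 in SUM159/LacZ, 6017 in SUM159/IRX5, 11735 in HMLE/LacZ, 10269.6 in HMLE/Gcnt2 and 10551 in HMLE/Foxq1. MDA-MB231 stood highest, and SUM159/IRX5, the lowest, was 1.34-fold below the parent. Its dimmer probe read 376 in the parent and 192 in SUM159/IRX5, 2.15-fold lower after background correction and just under 2-fold apart as deposited. The dimmer probe of NUSAP1 was 2.34-fold lower.

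Of the mitotic kinases, AURKB, the enzyme of the chromosomal passenger complex, read 2807 in SUM1315, 5054 in MDA-MB231, 1892 in untransfected SUM159, 1423 in SUM159/LacZ, 625 in SUM159/IRX5, 3375 in HMLE/LacZ, 2953 in HMLE/Gcnt2 and 3925 in HMLE/Foxq1. SUM159/IRX5 was the lowest of the 8, 3.13-fold below the parent and 2.34-fold below LacZ, while LacZ itself was only 1.34-fold below the parent. BIRC5 (survivin), which sits in the same complex, read 5387 in SUM1315, 3973 in MDA-MB231, 3226 in untransfected SUM159, 2198 in SUM159/LacZ, 1606 in SUM159/IRX5, 2265 in HMLE/LacZ, 1689.9 in HMLE/Gcnt2 and 3473 in HMLE/Foxq1. Its IRX5 reading was the lowest, 2.03-fold below the parent, and 1.82-fold by its dimmer probe. NEK2, a centrosome kinase, had the narrowest range of the group, with 2769 in SUM1315, 2019 in MDA-MB231, 1752 in untransfected SUM159, 1589.7 in SUM159/LacZ, 1173 in SUM159/IRX5, 1677 in HMLE/LacZ, 1312 in HMLE/Gcnt2 and 1910.3 in HMLE/Foxq1. PLK1, AURKA and NEK2, all kinases of the centrosome or spindle, lay 1.91-fold, 1.85-fold and 1.51-fold below the parent in SUM159/IRX5, short of the 2-fold line.

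**Figure D2:**
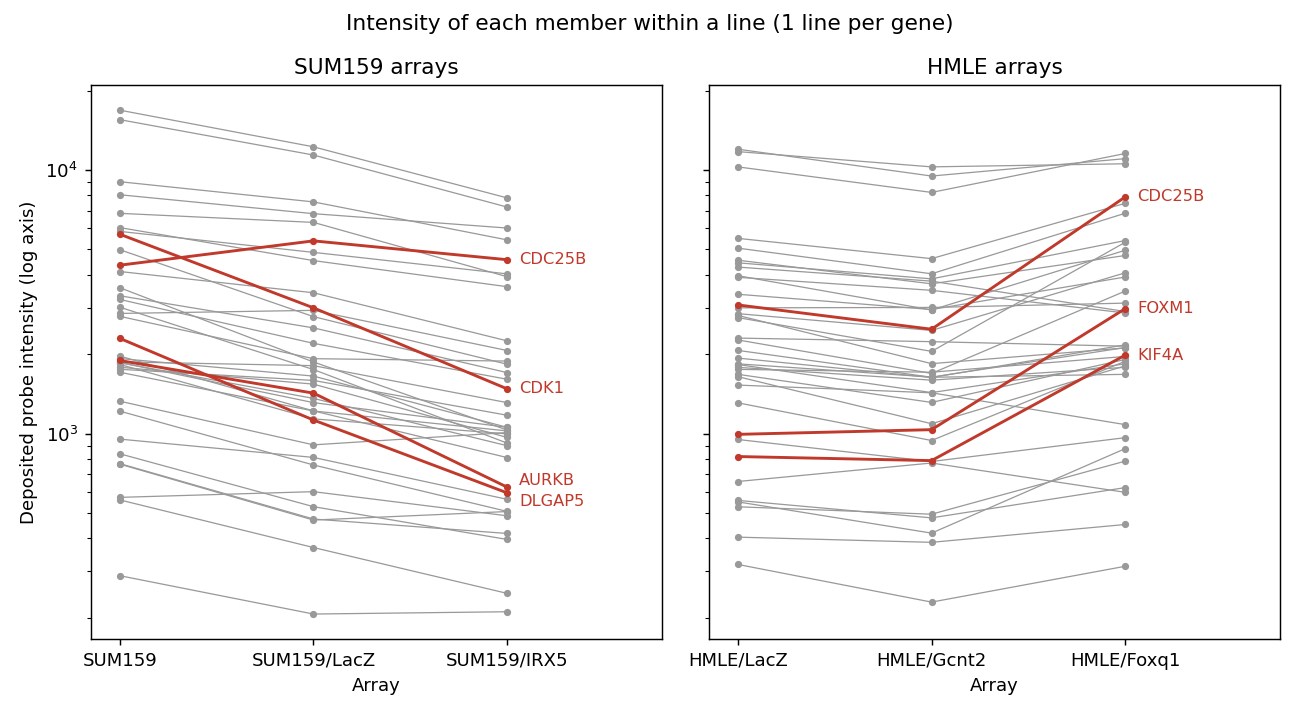
Deposited probe intensity (log axis) of each of the 37 members in the 3 SUM159 arrays (left) and the 3 HMLE arrays (right); each line joins the readings of 1 gene and red lines are named. Most lines on the left descend from the parent to SUM159/IRX5, with CDC25B the exception named, and on the right most are lowest at HMLE/Gcnt2 while CDC25B, FOXM1 and KIF4A are highest at HMLE/Foxq1.

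In the checkpoint group, BUB1B, which restrains CDC20, read 535 in SUM1315, 551 in MDA-MB231, 838 in untransfected SUM159, 528 in SUM159/LacZ, 396 in SUM159/IRX5, 558 in HMLE/LacZ, 479 in HMLE/Gcnt2 and 624 in HMLE/Foxq1. It was highest in the parent and 2.21-fold lower in SUM159/IRX5. BUB1, the kinetochore kinase of the checkpoint, read 2685 in SUM1315, 2637 in MDA-MB231, 1708 in untransfected SUM159, 1217 in SUM159/LacZ, 1023 in SUM159/IRX5, 1751 in HMLE/LacZ, 1708 in HMLE/Gcnt2 and 1961 in HMLE/Foxq1. MAD2L1, which inhibits the anaphase-promoting complex with BUB1B, read 279.5 in SUM1315, 321 in MDA-MB231, 289 in untransfected SUM159, 207 in SUM159/LacZ, 211 in SUM159/IRX5, 319 in HMLE/LacZ, 229 in HMLE/Gcnt2 and 314 in HMLE/Foxq1, a dim and even gene. TTK, BUB1 and MAD2L1 lay 1.88-fold, 1.69-fold and 1.44-fold below the parent in SUM159/IRX5. The centromere genes CENPF, CENPE and CENPA differed from the parent by 1.85-fold, 1.55-fold and 1.44-fold, all lower and none called. The probes of CENPA split against LacZ, lower by 0.48 on the log2 scale for one and higher by 0.14 for the other.

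Kinesins were among the members furthest apart. KIF20A, which carries the passenger complex to the midzone in anaphase, read 3872 in SUM1315, 3662 in MDA-MB231, 3575 in untransfected SUM159, 1868 in SUM159/LacZ, 1030.1 in SUM159/IRX5, 2753 in HMLE/LacZ, 2049 in HMLE/Gcnt2 and 5321 in HMLE/Foxq1. Its IRX5 reading was the lowest, 3.55-fold below the parent and 1.84-fold below LacZ. KIF11, the motor that pushes spindle poles apart, read 960.0 in SUM1315, 2367 in MDA-MB231, 1967 in untransfected SUM159, 1219 in SUM159/LacZ, 810.2 in SUM159/IRX5, 1827 in HMLE/LacZ, 1429.8 in HMLE/Gcnt2 and 1839 in HMLE/Foxq1. KIF14, a motor of cytokinesis, read 1673 in SUM1315, 2528 in MDA-MB231, 1856 in untransfected SUM159, 1359 in SUM159/LacZ, 899 in SUM159/IRX5, 1527 in HMLE/LacZ, 1427 in HMLE/Gcnt2 and 1080.5 in HMLE/Foxq1. KIF11 and KIF14 were both called in SUM159/IRX5 against the parent, 2.48-fold and 2.1-fold lower, and not against LacZ. KIF23, a motor of the central spindle, read 2593 in SUM1315, 1919 in MDA-MB231, 1829 in untransfected SUM159, 1136 in SUM159/LacZ, 997 in SUM159/IRX5, 1838 in HMLE/LacZ, 1637 in HMLE/Gcnt2 and 2119 in HMLE/Foxq1. KIF4A, a chromosome-bound motor of the anaphase midzone, read 1028 in SUM1315, 1093 in MDA-MB231, 952 in untransfected SUM159, 811 in SUM159/LacZ, 563 in SUM159/IRX5, 818 in HMLE/LacZ, 789 in HMLE/Gcnt2 and 1985 in HMLE/Foxq1. KIF23, KIF4A and KIF2C were lower than the parent by 1.86-fold, 1.73-fold and 1.33-fold, and the probes of KIF23 differed in sign between SUM159/LacZ and the parent.

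Spindle and chromosome genes held the widest gap. DLGAP5 (HURP), which stabilises kinetochore fibres, read 3578 in SUM1315, 3759.6 in MDA-MB231, 2297 in untransfected SUM159, 1125 in SUM159/LacZ, 595 in SUM159/IRX5, 1933 in HMLE/LacZ, 1631 in HMLE/Gcnt2 and 2170.2 in HMLE/Foxq1. The IRX5 array was lowest, with the widest gap of any member to the parent, 4.02-fold for IRX5 and 2.07-fold for LacZ. ANLN (anillin), the scaffold of the contractile ring, read 2544 in SUM1315, 4022 in MDA-MB231, 3016 in untransfected SUM159, 1748 in SUM159/LacZ, 919 in SUM159/IRX5, 2997 in HMLE/LacZ, 3008 in HMLE/Gcnt2 and 3123 in HMLE/Foxq1. SUM159/IRX5 was lowest, 3.36-fold below the parent. MKI67, the source of the Ki-67 proliferation antigen, read 361 in SUM1315, 888 in MDA-MB231, 560.1 in untransfected SUM159, 369 in SUM159/LacZ, 247 in SUM159/IRX5, 404 in HMLE/LacZ, 386 in HMLE/Gcnt2 and 452 in HMLE/Foxq1. It was again lowest in SUM159/IRX5, 2.45-fold below the parent. TOP2A, the topoisomerase that untangles sister chromatids, read 8917 in SUM1315, 9274 in MDA-MB231, 9022 in untransfected SUM159, 7562 in SUM159/LacZ, 5425 in SUM159/IRX5, 5500.1 in HMLE/LacZ, 4607 in HMLE/Gcnt2 and 7474 in HMLE/Foxq1. TPX2, which activates AURKA on the spindle, and TOP2A lay 1.98-fold and 1.67-fold below the parent in SUM159/IRX5. NUSAP1, a microtubule bundling protein, read 5876 in SUM1315, 5944 in MDA-MB231, 6843 in untransfected SUM159, 6323 in SUM159/LacZ, 3932 in SUM159/IRX5, 3970.0 in HMLE/LacZ, 2942 in HMLE/Gcnt2 and 4959 in HMLE/Foxq1. NUSAP1, PRC1, ASPM and HMMR, all microtubule proteins, were 1.75-fold, 1.68-fold, 1.49-fold and 1.39-fold lower than the parent in SUM159/IRX5.

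Other cell cycle lists were lower in the same array, as the plot of list medians by array shows. Of 53 other mitotic genes compared, 18 were called lower in SUM159/IRX5 than in the parent and none higher, with a median of -0.82. Over all genes 3.44% were called lower and 3.03% higher in this pair. PBK, a mitotic kinase, and FAM83D, a spindle protein, were 3.31-fold and 3.12-fold lower. The G1 and DNA replication genes went at least as far: 22 of 48 were called lower and 1, CCND2 (cyclin D2), higher, with a median of -0.94. TYMS, which makes thymidylate, read 1931 against 8987, 4.71-fold lower, and the ribonucleotide reductase subunit RRM2 was 4.43-fold lower. Against SUM159/LacZ the medians were -0.42 for the other mitotic genes and -0.58 for the replication genes, and for LacZ against the parent -0.36 and -0.40. Cell cycle inhibitors and members of the repressor complexes had a median of -0.13 in SUM159/IRX5 against the parent. Of 18 compared, GADD45A, a stress-induced growth arrest gene, and E2F5, a repressor E2F, were called higher and none lower. GADD45A read 4285 in the parent, 12657 in SUM159/LacZ and 11204 in SUM159/IRX5, so it was higher in both transfected arrays. The monocyte marker CD14 also differed along these arrays, with 179, 426 and 1072 in the same order, while PTPRC, the leukocyte marker, stayed under the limit in all 3, as did CD3E and HBB. CD68 read 619, 819 and 664. The epithelial integrin ITGB4 read 167, 273 and 843, and the mesenchymal marker SPARC 2631, 845 and 992. In SUM159/IRX5 against the parent, 1 of 2 epithelial markers compared was called higher and 1 of 5 mesenchymal markers lower. The part of these markers in the result was not tested.

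**Figure D3:**
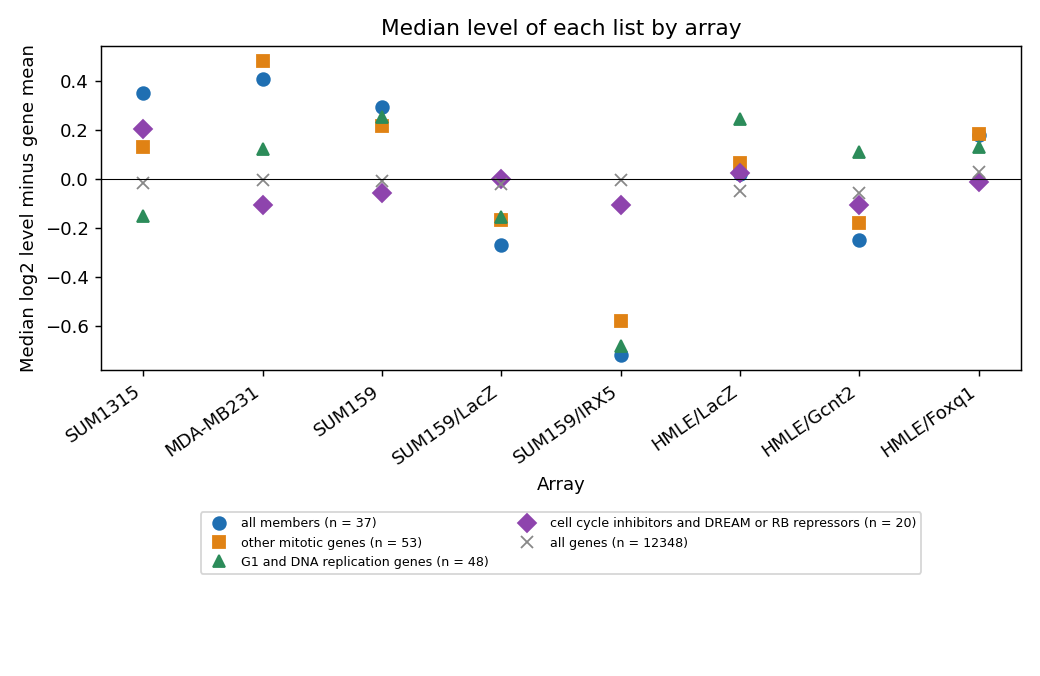
Median log2 level, relative to each gene's mean over 8 arrays, of the members, of other mitotic genes, of G1 and DNA replication genes, of inhibitors and repressors and of all genes above the limit, by array; each point is 1 median. In SUM159/IRX5 the 3 proliferation lists lie between -0.72 and -0.58, while the inhibitors are at -0.11.

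HMLE/Gcnt2 was set against HMLE/LacZ, its vector control. Mitotic genes had mostly lower readings: 34 of 37 members read lower than in LacZ (50.2% of all genes), with a median of -0.25, and no member was called in either direction (0.788% of all genes lower, 0.285% higher). The array was the lowest of the 3 HMLE arrays for 30 of 37 members (38.1% of all genes). The caveat on genes under the limit in some arrays applies to that share too. ASPM, which holds microtubules at spindle poles, had the widest gap. It read 2159.8 in SUM1315, 3011 in MDA-MB231, 2784 in untransfected SUM159, 1922 in SUM159/LacZ, 1883 in SUM159/IRX5, 2807 in HMLE/LacZ, 1841 in HMLE/Gcnt2 and 2113 in HMLE/Foxq1. HMLE/Gcnt2 was the lowest array, 1.53-fold below LacZ. CCNB1 read 1644 in HMLE/LacZ, 1089 in HMLE/Gcnt2 and 1807 in HMLE/Foxq1. Its Gcnt2 reading was 1.52-fold below LacZ. ASPM and CCNB1 were the only members past 1.5-fold against LacZ, where 2.86% of all genes lay lower. FOXM1 was one of the 3 members that were higher in Gcnt2, by 1.04-fold. CENPE, the kinetochore motor, was 1.18-fold higher, and ANLN was nearly level, with 3008 against 2997. The other mitotic genes had a median of -0.23 and the replication genes one of -0.11, with none called. Cell state markers differed in the same pair. Of 6 mesenchymal markers 5 could be compared, and 3 were called lower in HMLE/Gcnt2 than in LacZ, with a median of -1.21. VIM read 7074 against 16941, CDH2 2322 against 6067 and SPARC 928 against 2099.9. The 6 epithelial markers had a median of 0.54, with none called. The part of these markers in the result was not tested. The median shift of the members was smaller than that between the vector and no vector in SUM159, -0.46.

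The array labelled HMLE/Foxq1 was compared with the same LacZ array, so its values and those of Gcnt2 share a control. Members leaned higher, by a small amount: it was the highest of the 3 HMLE arrays for 27 of 37 members, against 49.7% of all genes, with a median difference of 0.17 against 0.07 over all genes. By any amount 10 of 37 members were lower (43.0%). FOXM1, CDC25B and KIF4A were called higher and none lower, against 6.31% and 5.65% of all genes, so the called share of members (8.11%) was near the background. FOXM1 was 3.07-fold higher than in LacZ, and its other probe read 1953 against 630.1. CDC25B, which opens mitotic entry at the centrosome, was 2.59-fold above LacZ and higher than in any other array. KIF4A read 818 in HMLE/LacZ, 789 in HMLE/Gcnt2 and 1985 in HMLE/Foxq1. Its reading in the array labelled Foxq1 was 2.48-fold above LacZ. KIF20A came next with 2753 in HMLE/LacZ, 2049 in HMLE/Gcnt2 and 5321 in HMLE/Foxq1. It was 1.94-fold above LacZ, short of the 2-fold line. FOXM1, CDC25B, KIF4A and KIF20A were also the 4 members with their highest reading of all 8 arrays in HMLE/Foxq1.

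Other members went the opposite way in the same array. CDK1 was 1.48-fold lower than in LacZ, and its dimmer probe was 2.01-fold lower, with 594 against 1162, just under 2-fold apart as deposited. KIF14 and CCNA2 were 1.43-fold and 1.37-fold lower, and TTK 1.24-fold. FOXM1 and CDC25B thus stood above LacZ in this array while CDK1 and CCNA2 stood below it. Of 53 other mitotic genes, 3 were called higher, NCAPD2 of condensin (2.43-fold), SPC25 of the kinetochore (2.21-fold) and the spindle pole gene NUMA1 (2.02-fold). LMNB1 (lamin B1) was the one called lower, 2.15-fold. Over all genes 6.31% were called higher and 5.65% lower, and neither share of this list exceeded those. Replication genes had 1 called higher, the helicase subunit MCM2 (2.49-fold), and 5 lower of 47. RRM2 read 205 against 1799, 10.2-fold lower. RFC3 and RFC2, clamp loader subunits, were 4.9-fold and 4.14-fold lower, each with another probe of the opposite sign, and UHRF1, an epigenetic regulator of S phase, was at least 3.25-fold lower. Among the repressors, RB1 read 199 against 658, 3.72-fold lower by its single detected probe. LIN52 of the MuvB core was at least 3.03-fold lower and RBL1 2.1-fold. CD14 read 645 in HMLE/LacZ and 1574 in HMLE/Foxq1, and CDH1 was lower there, as given above. Of the epithelial markers, 2 of 6 were called lower, with a median of -0.84, and of the mesenchymal markers 3 of 5 higher, with a median of 1.07. The remaining mesenchymal markers compared went the other way: CDH2 read 3301 against 6067 in LacZ, and FN1 284 against 443. The part of any of them in these results was not tested.

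The members with more than 1 probe show how far single readings of that array can be taken. Of the 10 such members, 2 gave background-corrected differences from LacZ that disagreed by over 2-fold between probes in HMLE/Foxq1, CDC25C and CENPA. None did in HMLE/Gcnt2. CDC25C has 3 probes, all assigned to NM_001790, and they read 550.4, 623 and 556 in HMLE/LacZ against 877, 231 and 721 in HMLE/Foxq1. One was thus lower and the others higher, 4.82-fold apart. CENPA, the centromeric histone, gave 1783 and 1783 by the probe for NM_001809 and 1091 and 558 by that for NM_001042426. The CENPA probes lay only marginally past the line, 2.01-fold apart after background correction and just under 2-fold as deposited. KIF23 gave 1838 and 2119 by the probe for NM_004856, while that for NM_138555 gave 229 and 143, the last under the limit. With that reading set at the limit the KIF23 probes lay 1.99-fold apart. NUSAP1 also had probes of opposite sign, higher by 0.32 and lower by 0.30 on the log2 scale. FOXM1 was the one called member with a second probe, and there both probes were higher. CDC25B, KIF4A, RRM2 and RB1 have 1 detected probe each, so no second probe of the gene checks them.

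**Figure D4:**
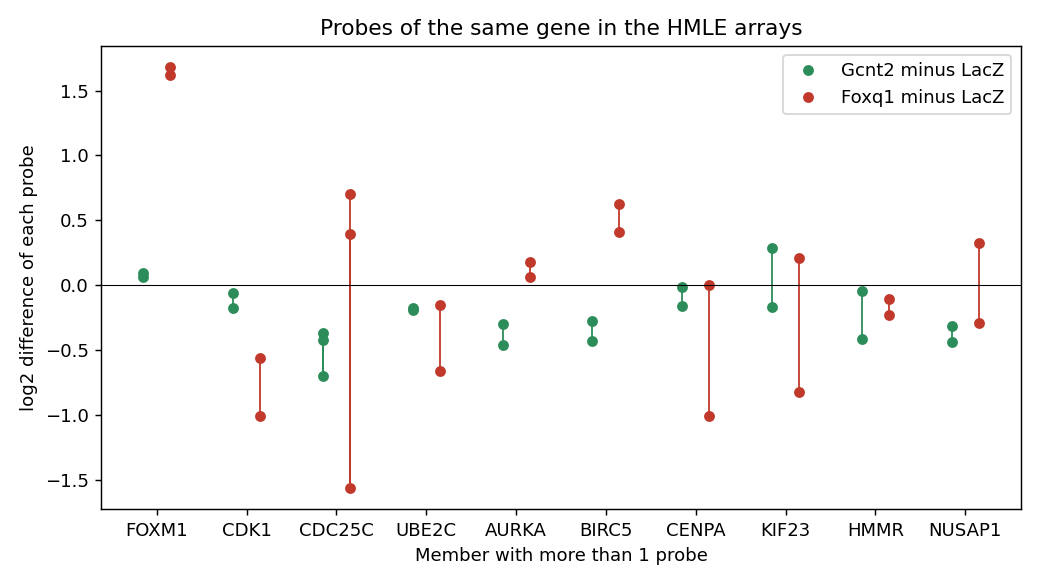
log2 difference from HMLE/LacZ of every probe of the 10 members with more than 1 probe, in HMLE/Gcnt2 (green) and HMLE/Foxq1 (red); each point is a probe and lines join probes of 1 gene. Probes of CDC25C and CENPA spread more than 2-fold in HMLE/Foxq1, the lower KIF23 point rests on a reading under the detection limit, and both FOXM1 probes lie high.

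The 3 untransfected lines address the study's question of how basal-like lines differ. The median member differed by 0.21 between MDA-MB231 and SUM159, by 0.04 between SUM1315 and SUM159 and by -0.07 between SUM1315 and MDA-MB231. Of 37 members, 8 read lower in MDA-MB231 than in SUM159 and 29 higher (48.4% of all genes lower). In SUM1315, 17 were lower than in SUM159 (50.3%) and 22 lower than in MDA-MB231 (50.4%). The share of members called was below that of all genes in most directions. For SUM1315 against SUM159, 2 members were called higher and 3 lower (9.99% and 9.03% of all genes). For MDA-MB231 against SUM159, 3 were higher and 1 lower (7.45% and 7.1%). For SUM1315 against MDA-MB231, 2 were higher and 5 lower (11.0% and 11.1%). With each gene read against the nearest of the 3 SUM159 arrays, no member was called lower in SUM1315 (5.37% of all genes) or in MDA-MB231 (4.16%). That rule is stricter by construction.

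**Figure D5:**
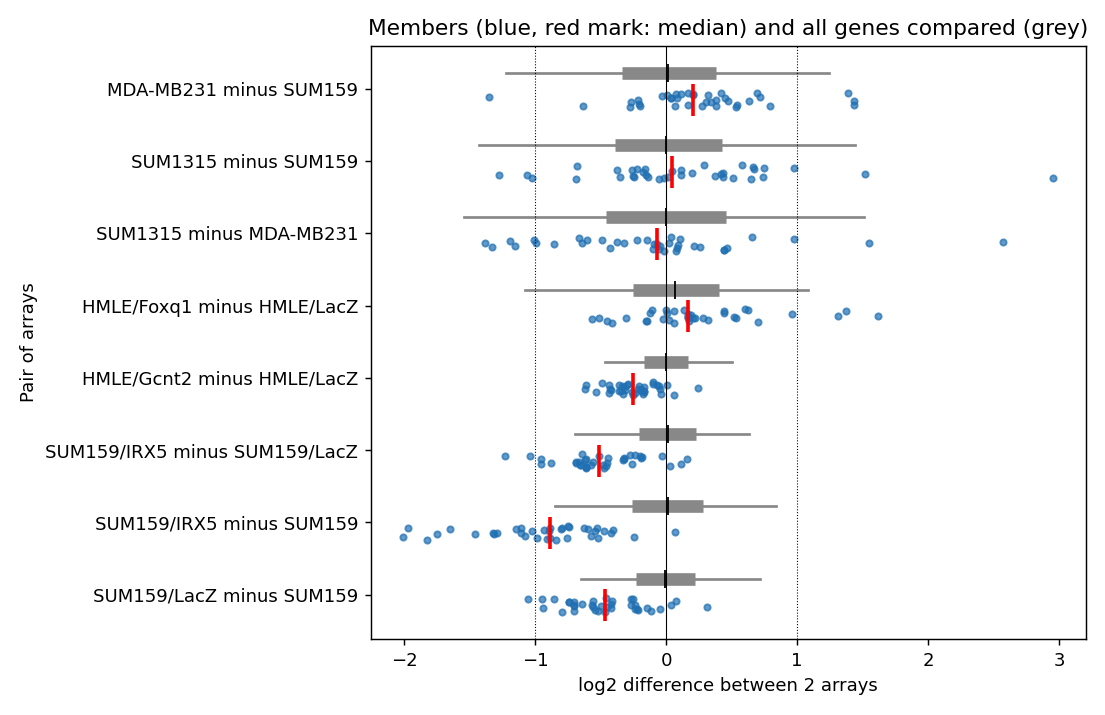
log2 difference of each of the 37 members (blue points, red mark at their median) for 8 pairs of arrays, above them in grey the distribution of all genes compared (bar: quartiles, thin line: percentiles 5 to 95, black mark: median); dotted lines mark 2-fold. Members sit left of 0 in the 3 SUM159 pairs and in HMLE/Gcnt2 minus HMLE/LacZ, and CDC25C is the far right point in both SUM1315 pairs.

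CDC25C had the widest range of any member. It read 4224 in SUM1315, 735 in MDA-MB231, 572 in untransfected SUM159, 602 in SUM159/LacZ, 487 in SUM159/IRX5, 550.4 in HMLE/LacZ, 419 in HMLE/Gcnt2 and 877 in HMLE/Foxq1. SUM1315 was 7.74-fold above SUM159, 5.96-fold above MDA-MB231, and 4.96-fold above the highest other array. All 3 probes agreed on this, with 4224, 3769 and 4028 in SUM1315 against at most 877, 789.6 and 759 elsewhere. CDC25B, its relative, did not share the gap, with 3965 in SUM1315, 4379.6 in MDA-MB231 and 4349.6 in SUM159. CENPA was the other member called higher in SUM1315 than in SUM159, 2.87-fold. It read 5300.1 in SUM1315, 2703 in MDA-MB231, 1869.9 in untransfected SUM159, 1809 in SUM159/LacZ, 1309 in SUM159/IRX5, 1783 in HMLE/LacZ, 1594 in HMLE/Gcnt2 and 1783 in HMLE/Foxq1. Both of its probes placed SUM1315 highest of the 8 arrays. KIF2C, the motor that depolymerises microtubules at centromeres, came close. It read 2586 in SUM1315, 1649 in MDA-MB231, 1327 in untransfected SUM159, 906 in SUM159/LacZ, 1008 in SUM159/IRX5, 1308 in HMLE/LacZ, 941 in HMLE/Gcnt2 and 1881 in HMLE/Foxq1. SUM1315 was 1.97-fold above SUM159.

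SUM1315 was low for a few members. CENPE read 393 in SUM1315, 856 in MDA-MB231, 766 in untransfected SUM159, 469.5 in SUM159/LacZ, 506 in SUM159/IRX5, 657 in HMLE/LacZ, 773 in HMLE/Gcnt2 and 598 in HMLE/Foxq1, and SUM1315 was the lowest of all 8 arrays. KIF11 was 2.51-fold below MDA-MB231 and 2.08-fold below SUM159. MKI67 was 2.6-fold below MDA-MB231, and CDK1 was 2.42-fold below SUM159. The MKI67 and CDK1 readings were thus low in the line whose CDC25C reading was highest.

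MDA-MB231 had the highest Aurora kinase readings. AURKA, the centrosomal kinase, read 5014 in SUM1315, 11092 in MDA-MB231, 4117 in untransfected SUM159, 3419.7 in SUM159/LacZ, 2245 in SUM159/IRX5, 4545 in HMLE/LacZ, 3697 in HMLE/Gcnt2 and 4736 in HMLE/Foxq1. The second AURKA probe gave 10483 in MDA-MB231 and at most 4651 in the other arrays. AURKB and UBE2C were highest there as well. Against SUM159, AURKA, AURKB and UBE2C were 2.71-fold, 2.7-fold and 2.61-fold higher. The dimmer UBE2C probe was 1.77-fold higher. HMMR, a microtubule protein that binds hyaluronan at the cell surface, was the member called lower, with 3271 in SUM1315, 1137 in MDA-MB231, 2854 in untransfected SUM159, 2932 in SUM159/LacZ, 2064 in SUM159/IRX5, 2302 in HMLE/LacZ, 2231 in HMLE/Gcnt2 and 2144 in HMLE/Foxq1. MDA-MB231 was the lowest of the 8 arrays by both HMMR probes, the second reading 973 there and at least 1613 elsewhere.

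The SUM159 and HMLE lines, with 3 arrays each that differ by transgene, overlapped for nearly all members. CENPF, a kinetochore protein, was the one member whose 3 SUM159 readings all lay above the 3 HMLE readings, where 21.0% of all genes did so. It read 1609.7 in SUM1315, 2498 in MDA-MB231, 1925 in untransfected SUM159, 1651 in SUM159/LacZ, 1055 in SUM159/IRX5, 527 in HMLE/LacZ, 494 in HMLE/Gcnt2 and 786 in HMLE/Foxq1. The highest HMLE reading thus lay below the lowest of SUM159. UBE2C, PLK1 and AURKB were the members with all SUM159 readings below HMLE (17.2% of all genes). By the dimmer UBE2C probe the lines overlapped, with 192 to 376 in SUM159 and 280.2 to 425 in HMLE. PLK1 read 769 in untransfected SUM159, 474 in SUM159/LacZ and 418 in SUM159/IRX5 against 949 in HMLE/LacZ, 783 in HMLE/Gcnt2 and 964 in HMLE/Foxq1. The means of the AURKB readings lay 2.91-fold apart. These counts depended on single arrays: without the untransfected SUM159 array 16 members lay wholly below HMLE (22.6% of all genes), and without the SUM159/IRX5 array 6 lay wholly above it (25.2%). Without HMLE/Gcnt2, 7 members lay wholly below (20.1%), and without HMLE/Foxq1, 2 lay wholly above (32.0%). All these shares of all genes include genes under the limit in some of the arrays, where the order of dim arrays is not a reading. They are thus only a rough background for the members, which lay above the limit in every array.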

How the data were processed

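The deposited table holds probe intensity values, and they look quantile-normalized: at a given rank, the intensities of the 8 arrays had a coefficient of variation no higher than 1.27%. Per the submitters' processing notes, GenomeStudio, lumi 1.14 and R 2.11.1 were used, and their roles are not stated there. Another, non-normalized table has 16 value columns that no label ties to a sample, and it was not used.

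Deposited intensities were background-corrected with limma 3.58.1 (R 4.3.3; normexp, offset 50) and taken to log2, and counts and figures were made in Python 3.11.15. Dim probes below the mode of 111 were mirrored, and a tail of 0.01 set the detection limit. A gene stands for its brightest probe. A pair was compared where at least 1 array was above the limit, with the dim array set at the limit. Probe names came from the platform annotation, updated to RefSeq symbols, and 2692 probes had none. The calling step was checked on simulated arrays with known folds. The outcome of that check is not given here, and no error rate of the calls follows from it.

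All 38 listed genes are accounted for. Values in every array are given for FOXM1, for members at least 2-fold apart within a line, with probes of opposite sign, or with the widest or narrowest range in their role group. Of the other lists, up to 4 genes per direction and pair qualify for naming. Members and lists were chosen with earlier results of these data known. The arrays hold 1 sample per group, so no significance test was made.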

Additional observations from a re-analysis of the deposited data

How the results depend on the processing

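Over 32 results and 261 alternative values, 243 stayed close and 18 moved. The processing alternatives were no background correction, an offset of 16, cyclic loess, a detection tail of 0.05, no detection filter and a fold of 1.5. The others were the mean of a gene's probes, the probe nearest to 0 or second in brightness, the nearest SUM159 array and left-out arrays. A count was close within 1.5-fold of the main count and could not be labelled reversed. A median was close within 0.335 on the log2 scale, which exceeds in size the medians of HMLE/Gcnt2 (-0.25) and HMLE/Foxq1 (0.17). Medians near 0 could not be labelled reversed either, and 0 of the other medians were. At a fold of 1.5 in place of 2, with the share of all genes in brackets, members lower numbered 12 (6.37%) for SUM159/LacZ against SUM159, 28 (10.3%) for SUM159/IRX5 against SUM159, 16 (7.01%) for SUM159/IRX5 against SUM159/LacZ, 2 (2.86%) for HMLE/Gcnt2 against HMLE/LacZ, 10 (20.7%) for SUM1315 against MDA-MB231, 5 (17.5%) for SUM1315 against SUM159 and 2 (15%) for MDA-MB231 against SUM159. Members higher numbered 7 (16.9%) for HMLE/Foxq1 against HMLE/LacZ, 4 (20.9%) for SUM1315 against MDA-MB231, 8 (19.3%) for SUM1315 against SUM159 and 7 (16.9%) for MDA-MB231 against SUM159. A lower fold admits more genes by construction. Against the nearest of the 3 SUM159 arrays, 0 members were lower in SUM1315 (5.37% of all genes) and 0 in MDA-MB231 (4.16%), a stricter rule by construction. With cyclic loess, 5 members had all SUM159 readings below HMLE (21.7%, with the caveat on dim genes given above). The cause was not tested. Leaving out each of the 6 arrays in turn gave 3 to 16 members wholly below HMLE and 1 to 6 wholly above, fewer arrays making non-overlap easier. Without HMLE/Foxq1, an alternative chosen after seeing the data, SUM159/IRX5 was lowest for 26 members, MDA-MB231 highest for 17 and SUM1315 highest for 13.

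No paired analysis was possible because each group has 1 array and the shared replicate number 1 pairs nothing. Readings near the limit of 146 carry mostly background, and no replicate spread is known for any value.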

Other observations

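The values here were looked up after the members' values had been seen, and no explanation was tested. CDC25C lies on chromosome 5, and some of the genes around it also read highest in SUM1315. NME5 read 458.5 in SUM1315 and 96.0 to 118 in the other arrays, all of which are under the detection limit. REEP2 read 533 in SUM1315 and 110.4 to 172 elsewhere, and KDM3B 1365 against 586 to 892. CDC23, the closest of the neighbours read on one side, was 1.07-fold above the highest other array. FAM53C, KIF20A, FAM13B and EGR1 were not highest in SUM1315.

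Chromosome 20 holds 4 members: CDC25B, TPX2, UBE2C and AURKA. In MDA-MB231 against SUM159 they differed by 0.01, 0.79, 1.38 and 1.44 on the log2 scale, in that order. CDC25B was thus level, while AURKB, on chromosome 17, differed by 1.43. Over the 316 genes of chromosome 20 compared, the median difference of MDA-MB231 from SUM159 was 0.32 on the log2 scale, the highest median of 23 chromosomes. Against SUM1315 it was 0.38 over 310 genes, again the highest of the 23.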
